A study of Homo sapiens with 24 samples.

Results

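The comparison set the m6A summit lists of HepG2 lines that express METTL14 with the substitution R298P beside those of lines that express METTL14 in its wild-type form (WT). It used 6 of the 24 samples of the series, the immunoprecipitated libraries titled R298P (3 biological replicates) and WT (3 biological replicates). HepG2 is a long-established line of liver cancer cells. Both groups received a lentivirus whose integrated cassette makes METTL14, and both were selected with puromycin, so the WT group also carries added METTL14 and is not untreated HepG2. The labels name no removal of the cells' own METTL14, and the sources used here give neither the promoter of the cassette nor whether a line was a pool or a clone. Poly(A) RNA was fragmented and precipitated with an anti-m6A antibody, and the authors called summits, the highest points of enriched peaks, for each library. Libraries of the 2 other lines, EGFP and METTL14 D312A (3 each), were used only to ask whether they held the same sites.

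N6-methyladenosine (m6A) is placed on mRNA by a complex in which METTL3 carries the catalytic pocket and METTL14 is its partner, which holds the RNA. The complex favours an adenosine inside the sequence GGAC and its relatives, and m6A is known to gather near stop codons and in long exons. Antibodies against m6A also bind m6Am, a mark at the transcribed base next to the cap that another enzyme writes, and these lists do not tell the marks apart.

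Summits at gene starts took a larger share of every R298P list than of any WT list, and the sequences beneath some of them are shown for that reason. The following 5 gained regions and 1 lost region are examples, not all there are, whose centre lay within 50 nt downstream of a RefSeq start (GRCh38.p14). Capitals mark GGAC or GGAT. Letters run along the gene's strand, and the stretch in RABGEF1 begins a few bases before its RefSeq start.
MMP14, gained, chr14:22836587-22836615, plus strand: accccagttcgccgactaagcagaagaaa
RABGEF1, gained, chr7:66654560-66654588, plus strand: ggagaccagacctactgcagccacgcggg
SIRT2, gained, chr19:38899569-38899593, minus strand: gtgacgGGACacagtggttggtgac
SLC39A11, gained, chr17:73092639-73092661, minus strand: gtggcagcgggggctgatggaag
SMAD1, gained, chr4:145481871-145481899, plus strand: ggagaaagcaggcgggcgggcggagaaag
KIF4A, lost, chrX:70290114-70290142, plus strand: gaggcccagggagaacggggaagGGACat
The stretches of SIRT2 and KIF4A hold GGAC, and no share is taken from these examples. A match is no proof of a methylated site, since a summit is placed only to within the length of an RNA fragment.

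Gained and lost regions were few beside the regions that the lines shared. Merging the summits of the 6 lists within 100 nt gave 27886 regions, and presence meant at least 1 summit in a library. All 6 libraries held 4726 of them and 1 library alone held 10574. Regions in 3 of 3 R298P and 0 of 3 WT libraries, called gained, numbered 205 (0.735% of all regions). Regions in 3 of 3 WT and 0 of 3 R298P libraries, called lost, numbered 475 (1.70%). A single region cannot pass a test with 3 libraries against 3, so these are counts without a p-value.

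The R298P lists were shorter on average than the WT lists, which bears on every count. R298P libraries held 11960, 11590 and 13721 summits in replicates 1, 2 and 3, and WT libraries held 14797, 12620 and 15114. The ranges overlap, because R298P replicate 3 exceeded WT replicate 2. The means were 12424 ± 1139 and 14177 ± 1358 (SD, n = 3 each), a difference of -1753 summits that did not pass (exact permutation test, two-sided, p = 0.2, where 0.1 is the smallest possible). When every list was trimmed by summit value to 11590 summits, as many as the shortest one has, 309 regions were gained and 327 lost. The 5000 best summits of each list gave 174 gained and 110 lost, so the balance between gains and losses turned with list length. The calls made again at equal length included 185 of the original 205 gains and 282 of the original 475 losses. Read depth per list is unknown, and fewer sites and shallower sequencing cannot be told apart from the lists alone.

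**Figure D1:**
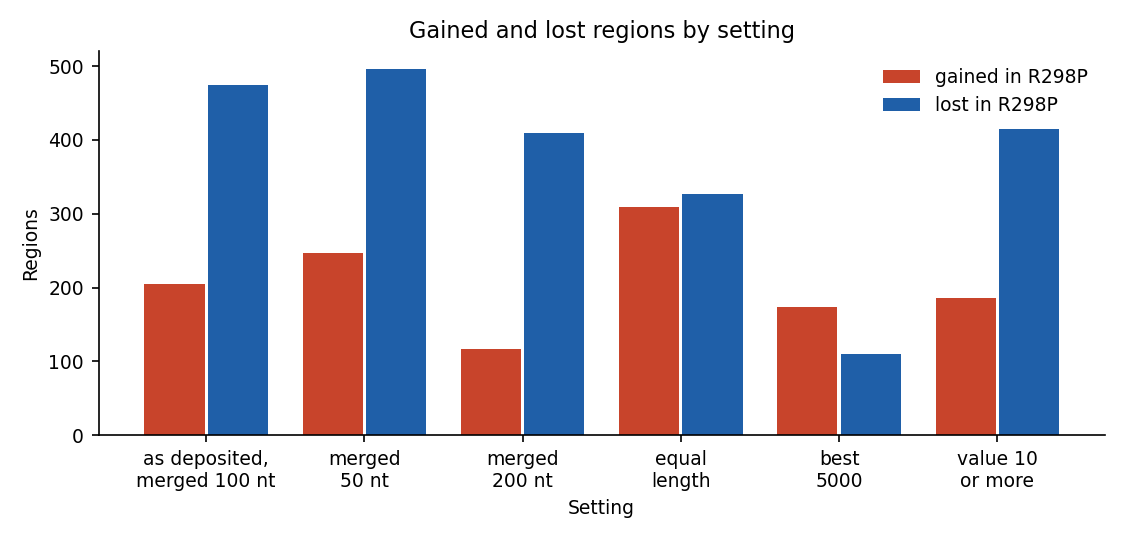
Number of regions (vertical axis, from 0) gained in R298P (red) and lost in R298P (blue) under 6 settings of the same 6 lists. Lost regions outnumber gained ones 475 to 205 with the lists as deposited, the counts are near each other at equal length (309 and 327), and gained regions are more numerous among the 5000 best summits (174 and 110).

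Replicate 1 offered a check on calls made without it, since list names set it apart from replicates 2 and 3. From replicates 2 and 3 alone, 843 of the regions were gained and 1337 lost. Of those 843 gained regions, R298P replicate 1 held 51.4% and WT replicate 1 held 39.7%. Of those 1337 lost regions, R298P replicate 1 held 23.4% and WT replicate 1 held 54.7%. In the library pair that the calls had not used, though the merging had, both kinds of region leaned the way they had been called. The lost ones leaned by a wider margin, but the WT replicate 1 list is longer (14797 summits against 11960). A longer list can hold more regions of either kind, and no allowance was made for this. That pair is 1 library per line, so the lean has no replicate error.

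Many gained regions lay close to a WT summit. The nearest WT summit was within 200 nt for 85 of the 205 gained regions (41.5%), and over 500 nt away for 80 (39.0%). For lost regions the nearest R298P summit was within 200 nt for 83 of 475 (17.5%) and over 500 nt away for 263 (55.4%). At equal list length 152 of 309 gained and 177 of 327 lost regions were over 500 nt from a summit of the other line, shares much nearer to each other. TEX2 showed the close kind. Its gained region (chromosome 17, 64212713 to 64212715) lay 112 nt from a WT summit, and the gene held 3, 4 and 4 summits in R298P and 4, 4 and 4 in WT. SNRNP35, a minor spliceosome protein, had a gained region (chromosome 12, 123465935 to 123465954) and a lost region (123466130 to 123466132), 173 and 176 nt from the nearest summit of the other line. TBC1D16, a Rab GTPase-activating protein, and TAF5L, a subunit of a histone acetyltransferase complex, likewise held a gained and a lost region each, 143 nt apart in TBC1D16 and 132 nt apart in TAF5L at their nearest summits. FEM1B, a ubiquitin ligase receptor, gained a region 133 nt from a WT summit. With merging within 200 nt, where such neighbours join, 117 regions were gained and 410 lost.

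Of the 205 gained regions, 177 lay in 1 protein-coding gene, 10 in 1 lncRNA gene, 9 in the spans of several genes and 9 outside gene spans. Of the 475 lost regions these numbers were 418, 11, 27 and 19. The assigned regions fell in 178 genes with a gain (1.93% of the 9225 genes with a summit) and 412 genes with a loss (4.47%), and 24 genes had both kinds. Among the 24 were IGF1R, a growth factor receptor, NFAT5, a transcription factor of osmotic stress, MARK2, a polarity kinase, and HIPK3, a nuclear kinase, named after their values were seen.

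In most host genes the other line held summits elsewhere. In all, 21 of the 187 assigned gained regions (11.2%) lay in a gene without any WT summit, and 84 of the 429 assigned lost regions (19.6%) in a gene without any R298P summit. The former genes numbered 20 and included SREBF1, a transcription factor of lipid synthesis, SC5D, an enzyme of cholesterol synthesis, MAP2K6, a kinase upstream of p38, SIRT2, a deacetylase, TTK, a mitotic checkpoint kinase, and SMARCC1, a chromatin remodelling subunit. The latter numbered 83 and included YTHDC2, an m6A reader, MLX, a partner of glucose-sensing transcription factors, PLIN2 and PNPLA3, proteins of the lipid droplet, SOCS1, an inhibitor of cytokine signalling, and DTL, a ubiquitin ligase receptor of the cell cycle. These examples were chosen after their values were seen.

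Among gained regions with no WT summit within 500 nt, the best ranked within their lists lay in GTF3C2-AS2, FAM120C, TNFRSF11A, SMARCC1, ZNF250, MGA, FZD6, GDNF, CREBRF and MMP14. GTF3C2-AS2, an antisense RNA, held 3, 3 and 3 summits in R298P and 1, 2 and 2 in WT, without overlap. The lists carry no strand, but summits went to an lncRNA gene only outside protein-coding spans. These summits therefore lay outside the RefSeq span of GTF3C2. The gained region of GTF3C2-AS2 (chromosome 2, 27359844 to 27359848) was in 0 EGFP and 0 D312A libraries. TNFRSF11A, the receptor of the bone factor RANKL, held 2 summits in each R298P library and 1 in each WT library, and its gained region (chromosome 18, 62385210 to 62385228) was in 0 EGFP libraries and 1 D312A library. MGA, a partner of MAX, showed a gained region (chromosome 15, 41736521 to 41736581) 12778 nt from the nearest WT summit and in 0 EGFP and 0 D312A libraries. The MGA gene nevertheless held 9, 11 and 9 summits in R298P against 8, 8 and 9 in WT, which overlap. SMARCC1 (1, 1 and 2 summits) and GDNF, a neurotrophic factor (1, 1 and 2 summits), were at 0 in every WT library. The region in GDNF (chromosome 5, 37815848 to 37815862) was held by 2 EGFP and 2 D312A libraries, and the region in SMARCC1 (chromosome 3, 47781795 to 47781803) by 1 EGFP and 2 D312A libraries, so neither was present in R298P alone. Expression of these genes was not examined.

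The corresponding lost regions lay in TF, which held 2 of the 10, and in MLX, PUDP, FLYWCH1, CLMN, ZNF217, DHX57, YTHDC2 and KLHL7. MLX (chromosome 17, 42571683 to 42571688) held 1 summit in each WT library and 0 in each R298P library, and its region was in all 3 EGFP and all 3 D312A libraries. The lost region of FLYWCH1 (chromosome 16, 2949017 to 2949028) was in 2 EGFP and 2 D312A libraries, in a gene with 1 summit in each of the 9 libraries outside R298P and 0 in each R298P library. YTHDC2 (chromosome 5, 113593548 to 113593552) and PUDP, a pseudouridine phosphatase (chromosome X, 7050084 to 7050086), each had 1 summit in every WT and EGFP library, 1, 0 and 0 in D312A, and 0 in R298P. KLHL7, a ubiquitin ligase adaptor (chromosome 7, 23174312 to 23174314), had 1 in every WT and EGFP library, 0, 0 and 1 in D312A, and 0 in R298P. Each of these 5 genes therefore had no R298P summit while the EGFP control had one throughout. TF, which encodes transferrin, varied as much within lines as between them. It held 9, 3 and 4 summits in R298P and 16, 6 and 8 in WT, and its EGFP libraries held 15, 1 and 13. In ZNF217, a zinc finger protein, R298P libraries held 6, 1 and 5 summits and WT libraries 6, 6 and 6.

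Libraries that had no part in the calls held the 2 kinds of region to different extents. Among gained regions, EGFP libraries held 33.2%, 23.4% and 22.4%. Among lost regions they held 67.4%, 66.1% and 60.6%. Among the 2290 regions present in exactly 3 of the 6 libraries but not called, they held 52.6%, 43.0% and 43.1%. Each EGFP library thus held lost regions most often and gained regions least often. The means for gained, lost and uncalled regions were 26.3% ± 5.93, 64.7% ± 3.58 and 46.2% ± 5.51 (SD, n = 3 each). D312A libraries held 26.3%, 14.1% and 24.4% of gained regions, 45.9%, 27.4% and 43.4% of lost regions, and 42.9%, 22.5% and 40.0% of uncalled ones. The order was the same, with a gap of a few points between lost and uncalled regions, and D312A replicate 2 has the shortest list of the series. The regions are the same for all 6 libraries and are no replicates, so these shares are a description without a test.

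**Figure D2:**
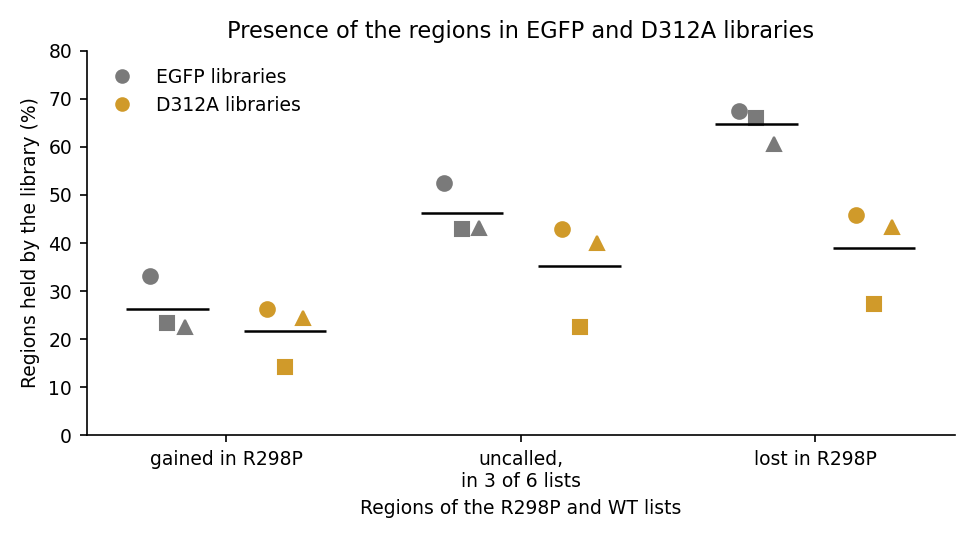
Percent of the 205 gained, 2290 uncalled and 475 lost regions (horizontal axis) held by each EGFP library (grey) and each D312A library (gold), with circles, squares and triangles for replicates 1, 2 and 3 and bars at the mean. EGFP libraries hold 60.6% to 67.4% of lost and 22.4% to 33.2% of gained regions.

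Of the gained regions, 92 (44.9%) were in 0 EGFP libraries and 71 (34.6%) in neither EGFP nor D312A. Of the lost regions, 163 (34.3%) were in all 3 EGFP libraries and 37 (7.79%) in none. Of these 163 lost regions, 22 were also in all 3 D312A libraries and 22 were in 0 of them, so D312A matched neither EGFP nor R298P throughout.

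Position along the gene was not used to call regions, and its values did not overlap between the lines. The zones of the first 300 nt and the last 2000 nt were added after seeing the data. The median position and the share within 50 nt of the start were planned, and both are given below. Of summits in protein-coding genes with a known strand, 7.40%, 7.02% and 6.66% lay in the first 300 nt of the gene in R298P replicates 1, 2 and 3, and 5.28%, 4.27% and 4.46% in WT. Every R298P library was above every WT library. The means were 7.03% ± 0.371 and 4.67% ± 0.537 (SD, n = 3 each), 2.36 points apart (two-sided exact permutation test without pairing, p = 0.1, its lowest possible value). With libraries paired by replicate number, an exact sign-flip test gave p = 0.25, also its lowest possible value. No difference can therefore pass 0.05 in either test. The difference was 2.12 points in replicate 1 and 2.48 in replicates 2 and 3. At equal list length it was 3.09 points. EGFP libraries, at 4.88%, 4.49% and 3.62%, lay in or below the WT range. D312A libraries, at 6.19%, 5.16% and 5.73%, lay below every R298P library, but D312A replicates 1 and 3 lay above every WT library. The D312A mean was 5.69% ± 0.514 (SD, n = 3), between those of WT and R298P. R298P lists were shorter on average, yet they held more start summits in number too: 628, 576 and 646 against 552, 385 and 468.

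At the gene end the order was the other way round. In R298P 27.8%, 26.2% and 26.4% of summits lay in the last 2000 nt, and in WT 29.1%, 29.5% and 27.9%. The libraries did not overlap, by a narrow margin, and the R298P mean minus the WT mean was -2.02 points (p = 0.1 in the same exact test). EGFP libraries held 28.96%, 29.3% and 30.4% there and D312A libraries 28.2%, 30.0% and 27.7%, so D312A replicate 3 lay in the R298P range. The median relative position along the gene was 79.5%, 80.5% and 80.0% in R298P and 81.3%, 83.6% and 81.9% in WT, a difference of -2.27 points (p = 0.1, the same exact test). Spans hold introns, and no exon annotation was used, so these positions do not name untranslated regions.

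**Figure D3:**
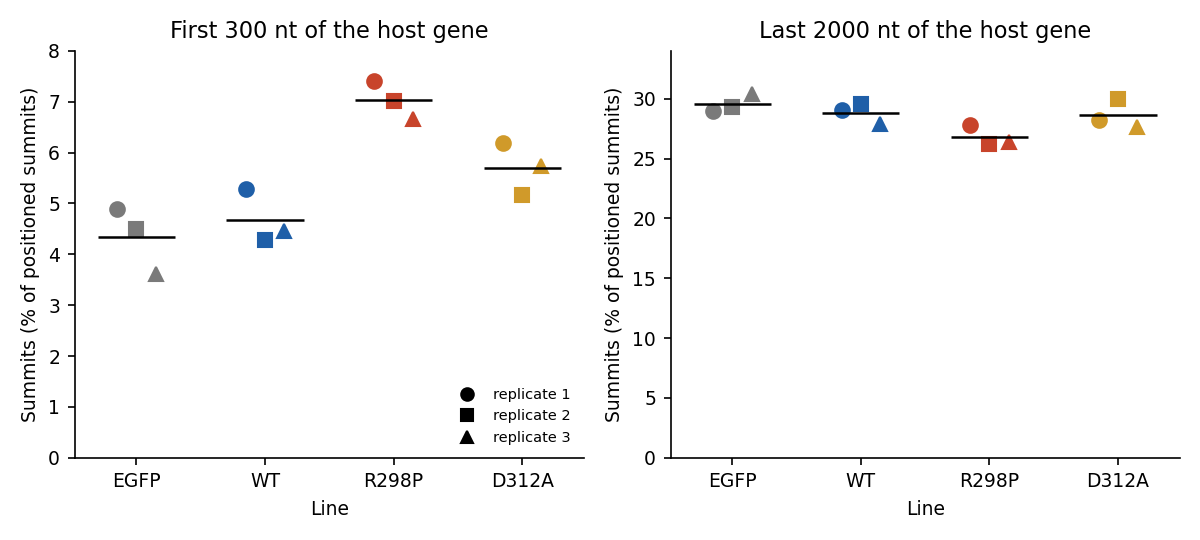
Percent of positioned summits (vertical axes, both from 0) in the first 300 nt (left) and the last 2000 nt (right) of the host gene, for each library of the 4 lines, with bars at the mean of 3. In the left panel the R298P libraries lie at 6.66% to 7.40%, above the 4.27% to 5.28% of the WT libraries, and in the right panel they lie lower than WT.

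The planned narrower zone, and windows around every start that were added after seeing the data, gave the same order of R298P and WT. Within 50 nt of the start lay 1.27%, 1.69% and 1.61% of R298P summits and 0.890%, 1.2% and 0.933% of WT summits, a difference of 0.518 points (exact permutation test, two-sided, p = 0.1). Other lines reached into the R298P range there, with 1.31% in EGFP replicate 2 and 1.34% and 1.37% in D312A replicates 2 and 3. Windows from 250 nt before to 50 nt after every RefSeq start, whatever gene a summit fell in, took 2.99%, 3.75% and 3.45% of R298P summits and 2.37%, 2.41% and 2.42% of WT summits. Means were 3.40% ± 0.383 and 2.40% ± 0.0295 (SD, n = 3 each, exact permutation test, two-sided, p = 0.1). D312A libraries, at 2.64%, 2.77% and 2.93%, lay above every WT library and below every R298P library in these windows. EGFP libraries held 2.28%, 2.63% and 2.02%, so EGFP replicate 2 lay above WT too. The share of lncRNA summits overlapped between the lines (difference -0.104 points, exact permutation p = 0.8). Windows with a summit held GGAC, searched on the gene's strand only, in 73.5%, 72.7% and 73.4% of cases in R298P and 74.8%, 72.0% and 71.7% in WT, against 66.3% of all 34943 windows. For GGAT, which can overlap no GGAC, the shares were 49.1%, 48.9% and 47.7% in R298P and 49.9%, 45.1% and 48.9% in WT, against 54.0% of all windows. Neither motif separated the lines, but this search could hardly do so. Most of each window lies before the start, and 66.3% and 54.0% of all windows hold GGAC and GGAT.

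Called regions followed the same positions. Of 140 gained regions that could be placed, 17 (12.1%) lay in the first 300 nt of the gene and 23 (16.4%) in the last 2000 nt. Of 349 lost regions, 8 (2.29%) lay in the first 300 nt and 117 (33.5%) in the last 2000 nt. Uncalled regions in exactly 3 libraries were between them, at 8.59% and 25.5% of 1595. These shares come from the same summits as the per-library shares and are no separate evidence.

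**Figure D4:**
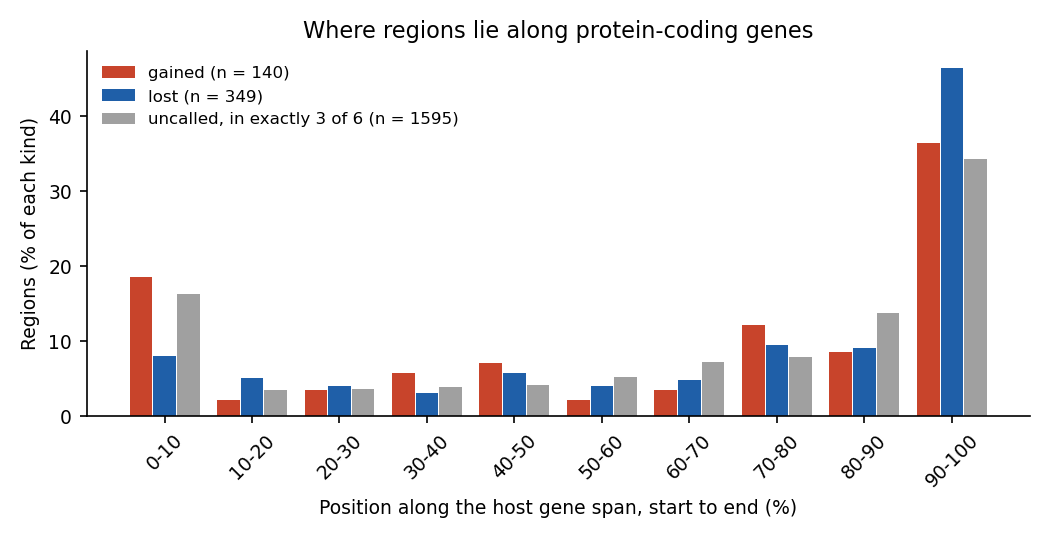
Percent of regions (vertical axis, from 0) by position along the host gene in 10 equal bins, for 140 gained (red), 349 lost (blue) and 1595 uncalled regions (grey) in protein-coding genes with known strand. In the bin nearest the start lie 18.6% of gained, 8.02% of lost and 16.4% of uncalled regions, and in the bin nearest the end 36.4%, 46.4% and 34.4%.

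Examined gene by gene, 1468 genes had a summit in their first 300 nt in at least 1 of the 6 libraries. R298P libraries had such a summit in 614, 560 and 636 genes and WT libraries in 541, 380 and 459, again without overlap (603 ± 39.1 and 460 ± 80.5, SD, n = 3; exact permutation test, two-sided, p = 0.1). In 17 genes (1.16%) all 3 R298P and no WT libraries had one, and in 7 genes (0.477%) the reverse held. The 17 were MMP14, a membrane metalloproteinase, SC5D, SLC39A11, a zinc transporter, CDK11B, a cyclin-dependent kinase, NUP153, a nuclear pore protein, ADAR, the adenosine-to-inosine RNA editing enzyme, MXI1, an antagonist of MYC, PPFIBP1, GIT1, SREBF1, HARS1, a histidyl-tRNA synthetase, PTCHD4, DYNC1LI1, a dynein chain, SIRT2, CPSF6, a cleavage factor of mRNA ends, RABGEF1 and EPB41, a membrane skeleton protein. The 7 were KIF4A, a chromosome-bound kinesin, THOC2, a subunit of the mRNA export complex, BANP, SETD6, NEIL1, a DNA glycosylase, SMTN and GDPD5. All 24 were named after their values were seen. Counted over the whole span, bases shared with other genes included, 10 of the 17 genes had a WT summit elsewhere and 7 of the 7 had an R298P summit. By summits assigned to 1 gene, as used for host genes above, GIT1 had none in WT. In 8 of the 17 no EGFP library had a start summit, and in 5 of the 17 neither an EGFP nor a D312A library had one. An A was the base at the RefSeq start in 12 of the 17 (70.6%), in 3 of the 7 and in 44.4% of all windows, a difference on few genes that was not tested. The genes were counted at 1 RefSeq start each, though a gene can have several. The 44.4% covers all 34943 windows, with or without a summit, so these shares are in unlike units and no conclusion is drawn. Whether a start summit stems from m6A or m6Am was not tested.

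The strength of these start summits within their lists was middling or low. Median percentile ranks ran from 66.2 for MMP14 and 57.5 for SC5D down to 11.2 for RABGEF1 and 7.35 for EPB41. Over all 205 gained regions the median rank was 49.4 and over the 475 lost regions it was 41.9.

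The number of summits per gene was compared in 4663 genes with a mean of at least 1 summit. The 3 counts of R298P all lay above those of WT in 42 genes (0.901%) and all below in 173 (3.71%). At equal list length the numbers were 80 and 100, nearer to balance, and the median difference over all genes was 0 with the lists as deposited. MKI67, a proliferation marker of the chromosome surface, held 7, 6 and 8 summits in R298P and 12, 12 and 13 in WT, the widest gap among genes whose counts do not overlap. EGFP libraries held 9, 10 and 10 and D312A libraries 10, 7 and 9. CENPF, a kinetochore protein, held 2, 0 and 1 in R298P and 5, 6 and 7 in WT, while EGFP held 1, 5 and 4, which overlaps both. In PSMB7, a proteasome subunit with 3 lost regions, R298P libraries held 1, 2 and 1 and WT libraries 5, 5 and 6. CEP350, a centrosome protein, held 1, 2 and 2 against 4, 8 and 5, and IRS1, an adaptor of the insulin receptor, 6, 6 and 8 against 9, 9 and 12 (limma adjusted p = 0.624, and 0.0335 with the replicate number as a block). TCF20, ZNF275 and TSC22D1 completed the 8 widest gaps downward.

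Upward gaps were narrower. FBXL19, an F-box protein that binds CpG islands, held 7, 8 and 5 summits in R298P and 4, 3 and 4 in WT. GTPBP6 held 3, 2 and 4 against 1, 0 and 1. PCNX1, with 2 gained regions, held 8, 7 and 6 against 4, 5 and 5, but its EGFP libraries, at 8, 6 and 5, overlapped both lines. RPTOR, the scaffold of mTORC1, held 5, 6 and 6 against 4, 4 and 3. CASP10, an apoptotic protease, held 3, 2 and 2 against 0, 0 and 1. WASHC4, a subunit of the endosomal WASH complex with 2 gained regions, held 2 in each R298P library and 0 in each WT library, and its EGFP libraries held 1, 0 and 1. DMWD and PTBP3, a splicing regulator, were the others of the 8 widest gaps upward. MTCL1, a microtubule crosslinker with 3 gained regions, held 13, 10 and 15 against 10, 6 and 6, which overlap.

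**Figure D5:**
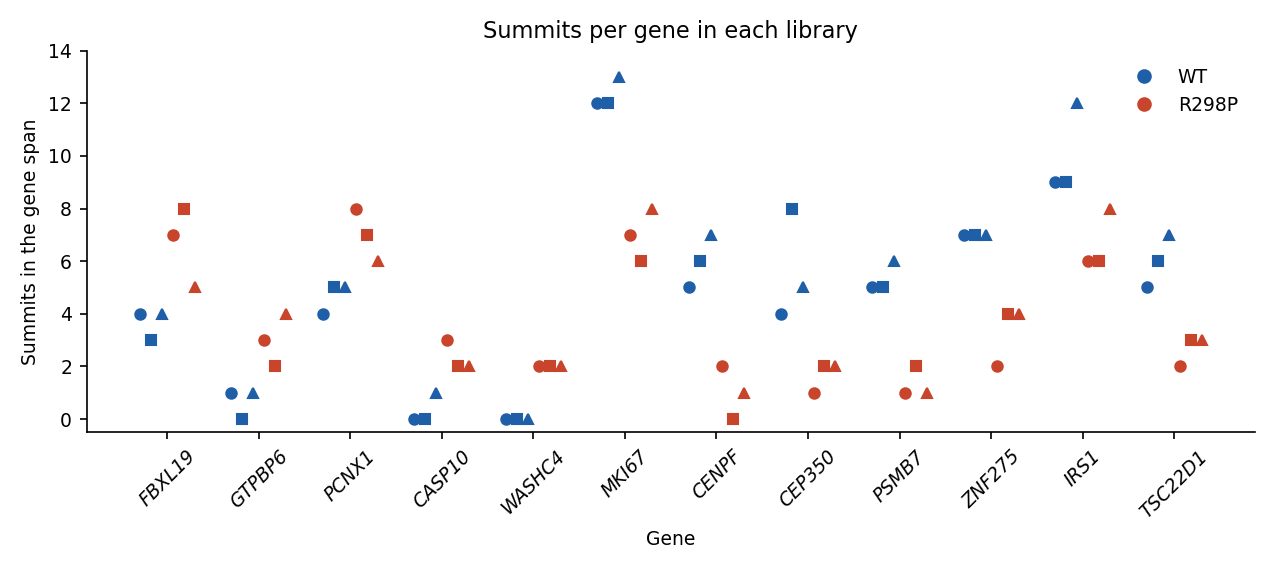
Summits per gene (vertical axis) in each R298P library (red) and WT library (blue), with circles, squares and triangles for replicates 1, 2 and 3, for 12 of the genes with the widest gaps between lines. The largest gap is in MKI67, with 6 to 8 summits in R298P and 12 or 13 in WT, and points at 0 are counts of 0.

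limma on log2(summits + 1) with Benjamini-Hochberg adjustment called 15 genes higher (0.322%) and 47 lower (1.01%) at an adjusted p under 0.05. In 60 of the 62 genes the 3 libraries of each line held identical counts, so the error was set almost wholly by the model and the p-values do not rank these genes. The 2 with spread were FNIP1, a regulator of AMPK and mTORC1, and ZBTB49, a transcription factor. Each held 0 in every R298P library and 2, 2 and 3 in WT, a log2 difference of -1.72 ± 0.130 (SE, n = 3 each, limma adjusted p = 0.00677). With the replicate number as a block neither passed (limma adjusted p = 0.128 for both). Among zero-spread genes, KRI1, a ribosome biogenesis protein, held 0 against 2 in every library (2 lost regions), and N4BP2L2 and ZNF350 held 1 against 3. With genes that have spread in a line only, limma called 0 higher and 2 lower, and scaled by list length it called 0 and 0, with 243 and 134 genes at an unadjusted p under 0.05 beside 56 and 233 without scaling. Scaling moved the median log2 difference over all genes from -0.05 to 0.14. MKI67 (limma adjusted p = 0.0943), PSMB7 (limma adjusted p = 0.0796) and CENPF (limma adjusted p = 0.35) did not pass. In simulated data, differences of 8 summits, wider than those named here, were recovered in 153 of 200 genes, and smaller ones were not simulated.

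Of the writer complex, METTL14 itself held 10, 6 and 9 summits in R298P and 11, 9 and 7 in WT, against 1 in each EGFP library. Its count therefore separated EGFP from both METTL14 lines and not R298P from WT. METTL3 held 1, 0 and 2 against 1, 1 and 1, and WTAP, its adaptor, 4, 4 and 3 against 3, 3 and 3. Of 7 writers tested, 0 had counts without overlap (0.901% and 3.71% of all genes tested, upward and downward). A gained region lay in 1 writer (RBM15) and a lost one in 1 (VIRMA), beside 1.93% and 4.47% of all genes with a summit. Among erasers and readers, 9 of 9 tested genes had a lower mean in R298P, beside 2223 of all 4663 genes tested. Their median difference was -0.667 summits beside 0 over all genes tested, yet 0 of the 9 had counts without overlap. R298P lists were shorter on average, and the part of list length in this was not tested.

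Among liver transcription factors, 2 of 13 tested members had counts without overlap, both lower in R298P, beside 3.71% of all genes tested. The mean was lower in 9 of the 13 and higher in 3, beside 2223 and 1176 of 4663 genes, with a median difference of -1 summit. HNF4A, a master regulator of hepatocytes, held 7, 7 and 8 summits in R298P and 11, 9 and 9 in WT, without overlap, and without a gained or lost region. FOXA2, a pioneer factor, held 3, 3 and 3 against 4, 4 and 4 and had a lost region (chromosome 20, 22582605 to 22582609) that 3 EGFP libraries held. NR1I2, a drug-sensing nuclear receptor, held 0, 0 and 1 against 1, 3 and 3. PPARA, with 2 lost regions, held 5, 5 and 9 against 11, 7 and 9, which overlap. PROX1, a regulator of liver development, went the other way, with 3, 6 and 4 against 3, 2 and 4, which overlap too. Of hepatocyte markers, 12 of 12 had a summit, beside 1 of 10 fibroblast, 3 of 10 blood and 2 of 7 endothelial markers.

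Secreted hepatocyte proteins were uneven between libraries of one line. APOB, the core protein of lipoproteins, held 30, 2 and 1 summits in R298P and 39, 9 and 4 in WT, while EGFP held 10, 0 and 32 and D312A 31, 36 and 0. Replicate 1 of both lines was high, and the part of this unevenness in the lost regions of TF was not tested. In lipid storage, PLIN2 and PNPLA3 each held 1 summit in every WT library and 0 in every R298P library. EGFP libraries held 1, 0 and 1 in PLIN2 and 1, 1 and 1 in PNPLA3, and D312A libraries 0, 1 and 0 and 1, 0 and 1. SREBF1 held 1 in every R298P library and 0 in WT, at its start (chromosome 17, 17836845 to 17836924), a region that was not called at equal length. SREBF1 held 1, 0 and 1 in EGFP and 1, 0 and 0 in D312A, so its summits were not present in R298P alone. UGT2B7, a glucuronosyltransferase, held 1, 1 and 2 in R298P and 0, 0 and 1 in WT, while its EGFP and D312A libraries all held 0.

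Receptor tyrosine kinase feedback and immediate early response had 16 tested genes. The mean was lower in R298P in 11 of them, higher in 1 and equal in 4, beside 2223, 1176 and 1264 of all 4663 genes tested. R298P lists were also shorter on average. Of the 16, 1 had counts without overlap, SPRY4, beside 3.71% of all genes tested that were lower without overlap. SPRY4, a brake on receptor tyrosine kinases, held 3, 2 and 4 summits against 5, 6 and 6 in WT, without overlap. D312A libraries held 3, 2 and 3, near R298P, and EGFP libraries held 4, 7 and 7, near WT. Among suppressors of cytokine signalling, SOCS1 held 0, 0 and 0 against 2, 1 and 1, and SOCS7 held 3, 3 and 4 against 3, 2 and 2, which overlap. AKT2, a kinase of insulin signalling, held 1 in every R298P library and 2 in every WT library. In the MYC network, MYC held 2, 0 and 1 against 2, 2 and 2 and had a lost region, MXI1 and MGA had gained ones, and MLX and MLXIP lost ones. NSD2, a histone methyltransferase, held 2, 3 and 3 against 5, 5 and 4, without overlap, but EGFP held 1, 3 and 2, so the WT line stood apart there. USP10, a deubiquitinase, held 3, 2 and 2 against 1, 1 and 1.

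No member of the lists of other RNA methyltransferases, Wnt and Hippo pathway genes, SR splicing factors or glycolysis had a gained or a lost region. The lists do not hold every gene of a pathway. FZD6 and BCL9L, genes of the Wnt pathway that are not on its list, had gained regions. With 1.93% and 4.47% of all genes with a summit holding one, a count of 0 in lists of this size is near the background. Wnt and Hippo genes had summits in 22 of 23 members, and 0 of the 15 tested had counts without overlap. Glycolysis genes had summits in 11 of 20 members, and 0 of the 7 tested did.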

How the data were processed

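Summit lists of 12 immunoprecipitated libraries were used, 6 of them for the comparison. The authors deposited 1 list per library, with 1 position and a value per summit on hg38, which was read from its range as a −log10 p or q value. The submitters' processing notes name, among others, STAR 2.7.9a, MACS2 2.1.2, HOMER 4.9 and bedtools 2.17.0, without roles or settings. The value served only to rank summits within a list. A table of the input libraries was not used: no label ties its 18 value columns to samples.

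Groups and replicate numbers came from sample titles. Summits within 100 nt were merged. Genes were the RefSeq (GRCh38.p14) spans, and 15843 of 20056 protein-coding genes had a strand. Protein-coding spans took precedence over lncRNA spans. Beyond that, summits in the spans of several genes were not assigned, except for METTL14, METTL3 and WTAP, which were counted over their whole span. Per-library values went through exact permutation tests (two-sided, 20 assignments), and gene counts through limma 3.58.1 (R 4.3.3) on log2(summits + 1), tested on simulated data. Deviations of same-numbered libraries correlated at 0.348, 0.106 and 0.148, all over 0.1, the threshold used, so the numbers were taken to pair the samples, although a differently numbered pair (R298P replicate 2 with WT replicate 3) reached 0.118 and only replicate 1 stood apart. The permutation tests did not use this pairing, which entered only the sign-flip tests and the limma block. In the list of R298P replicate 2 the peak names carry a version mark. No list was a copy of another, by their share of summits at the same base. p-values refer only to differences between these replicate libraries and do not cover how each line was derived. For limma calls on genes without spread, the error came almost wholly from the model.

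The genes named by rule were the 10 best ranked gained and lost regions without a summit of the other line within 500 nt, the 3 best of each kind with one within 200 nt, the 8 widest gaps each way among genes without overlap, up to 8 genes with several gained or lost regions, members of 21 gene lists with a called region, and the writers. Other genes were picked after their values were seen, among them HNF4A, PROX1, AKT2, APOB, FNIP1, ZBTB49, N4BP2L2 and ZNF350. The members and lists were chosen with earlier results of these data known. The depth is unknown.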

Additional observations from a re-analysis of the deposited data

How the results depend on the processing

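With the replicate number as a block, limma called 17 genes higher and 47 lower, against 15 and 47 without it. The fits shared 56 calls; 6 calls, FNIP1 and ZBTB49 among them, were lost and 8, IRS1 among them, were new. Under the block, exact sign-flip tests within the pairing gave 0.25 for list length, start share and end share, the smallest p that 8 assignments allow. Gained regions numbered 117 with merging within 200 nt, 309 at equal length and 865 in replicates 2 and 3, with 103, 269 and 727 host genes. Lost regions numbered 110 among the 5000 best summits and 1358 in replicates 2 and 3, with 94 and 1104 host genes. These counts for replicates 2 and 3 come from merging their own lists only. The 843 gained and 1337 lost regions of the Results used regions merged from all 6 lists. Leaving out 1 library gave 297 to 521 gained regions in 256 to 445 genes and 699 to 1035 lost regions in 598 to 851 genes, since fewer libraries need to share a region. limma calls, higher and lower, were 0 and 2 for genes with spread, 35 and 138 at a minimum mean of 0.5, 4 and 11 at 2, 0 and 0 scaled by list length, 109 and 179 in replicates 2 and 3, 26 to 49 and 74 to 110 without 1 library, and 25 higher at equal length. Genes higher without overlap numbered 27 with spread, 67 and 21 at minimum means of 0.5 and 2, and 80 at equal length, and genes lower without overlap 285, 94 and 100 in the last 3 settings. At merging within 200 nt, 5 list members had a gained region. At equal length EGFP libraries held 36.03% of gained and 68.3% of lost regions, D312A libraries 30.0% of gained regions, and 152 of 309 gained regions had no WT summit within 500 nt; the cause of these shifts was not tested. No tested difference changed sign, but the excess of lost over gained regions turned among the 5000 best summits (174 gained), and limma's split at unadjusted p turned with scaling by list length. The settings were planned, except genes with spread, replicates 2 and 3 for genes and single values, the first 300 nt, the last 2000 nt, the start windows and the checks at 200 nt and equal length of presence, distance and lists, which were added after seeing the data. The motif search around summits was not run, as no genome sequence was used here, and list length and unknown depth limit every count of regions.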
